A study of Mus musculus with 15 samples.

Results

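The 34 genes described here encode structural, contractile and metabolic proteins of skeletal muscle, and they were measured in bulk RNA of mouse dorsal root ganglia (DRG), the ganglia that hold the cell bodies of sensory neurons. They were chosen by symbol from a list of muscle genes, with no threshold on a measured value but with earlier results of these data known. All 34 were found among the 39179 gene identifiers of the count table. All 34 had at least 1 count, 25 had a count in every library, and 32 passed the filter on low counts and were tested. Actc1 and Myh7 did not pass it.

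Each of the 15 libraries came from the lumbar DRG 4 to 6 of 1 mouse aged 3 to 6 months, on a mixed background that is mostly C57bl6. The study asked how loss of the miR-183 cluster, which holds the genes of 3 microRNAs, alters gene expression in the DRG before and after nerve injury. The control naive group (replicates 1, 2, 3, 6 and 7) held 4 Wnt1-Cre mice and 1 wt mouse, replicate 7, without injury. The knockout naive group (4, 5, 8 and 9) held Wnt1-Cre; mirflox/flox mice, in which Cre driven by Wnt1 acts in cells of the neural crest, the source of the sensory neurons and glia of the ganglion but not of limb and trunk muscle. Control SNI (15, 18 and 23) held 1 Wnt1-Cre mouse and 2 wt mice, replicates 18 and 23. Knockout SNI (13, 19 and 21) held Wnt1-Cre; mirflox/flox mice. SNI, the spared nerve injury, ties off and cuts the tibial and common peroneal branches of the sciatic nerve and spares the sural branch. The surgery opens the biceps femoris muscle to reach the sciatic branches. Animal numbers ran from 1041 to 1082 in the naive groups and from 948 to 976 in the SNI groups. After injury they were 948, 950 and 956 in knockout and 974, 975 and 976 in control. What these numbers follow is not given in the sources used here. A difference between such series of animals cannot be told apart from injury, nor, after injury, from genotype. Values of single libraries are given below in the order of the replicate numbers above.

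Skeletal muscle is built of sarcomeres, in which thick filaments of myosin slide along thin filaments of actin. Calcium released from the sarcoplasmic reticulum binds troponin on the thin filament and lets the myosin heads attach, and creatine kinase, glycogen phosphorylase and enolase keep ATP supplied. Most of these proteins come in a fast and a slow form, encoded by separate genes, and the myosin heavy chain that a fibre makes is the usual basis for naming its type. A DRG holds neurons, satellite glia, Schwann cells, vessels and a connective tissue capsule, but no skeletal muscle fibres.

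Library totals ran from 5.25 to 10.8 M counts. CPM are counts scaled to the library total, here after the TMM scaling named below. A gene with 0 counts in a library could still be at up to 0.273 to 0.647 CPM from counting error, taken as 3 counts. Control SNI 23 was the shallowest library and stood apart from its group. Its Spearman correlations across tested genes with the other control SNI libraries were 0.953 and 0.958, against 0.982 to 0.993 for the 20 other pairs of libraries within a group. The 15 sensory neuron markers (Prph, Scn10a and others) summed to between 15950 and 18960 CPM in every library, as the tissue label says. Levels are CPM scaled by TMM, edgeR's normalisation.

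The summed level of the 34 genes differed 46.4-fold between libraries of the same tissue. It was 219, 57.1, 67.3, 47.3 and 128 CPM in control naive, and 275, 67.7, 460 and 89.6 CPM in knockout naive. After injury it was 52.4, 751 and 64.5 CPM in control and 1351, 323 and 2196 CPM in knockout. The 4 highest libraries were knockout SNI 21, knockout SNI 13, control SNI 18 and knockout naive 8, and the lowest was control naive 6. All 4 groups overlapped except that the lowest knockout SNI library, 19, lay above every control naive library. Group means ± SD were 104 ± 71.8 CPM (n = 5) for control naive, 223 ± 183.4 (n = 4) for knockout naive, 289 ± 400 (n = 3) for control SNI and 1290 ± 938 (n = 3) for knockout SNI. The SD was larger than the mean in control SNI, and the summed level was no steady property of any group. At most 0.215% of a library's counts fell on these genes (knockout SNI 21), and at least 0.00483% (control naive 6). In bulk RNA, fewer cells of a type and less RNA per cell cannot be told apart, and this holds for every level given here.

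**Figure D1:**
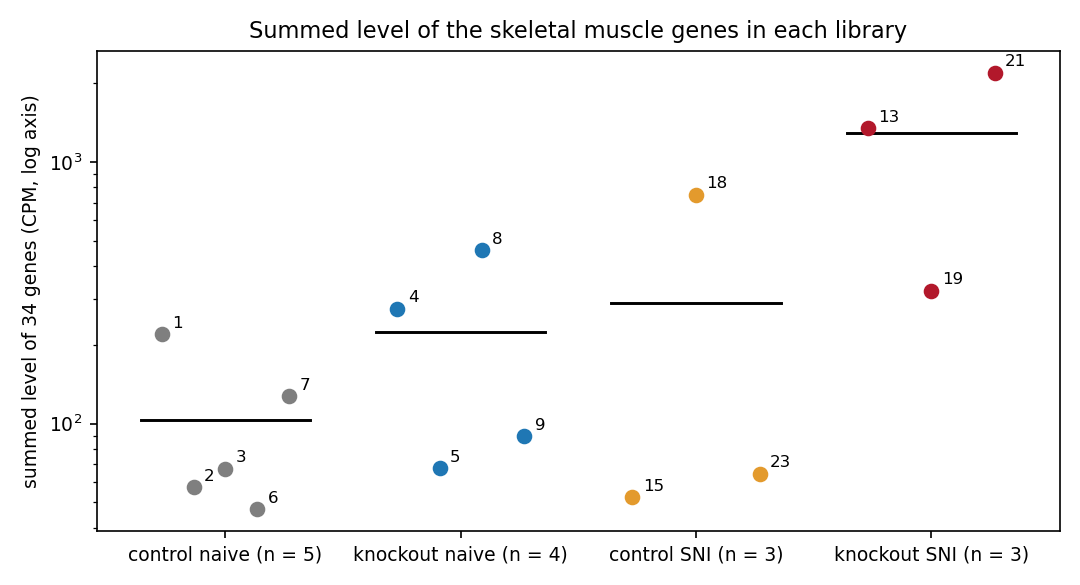
Summed level of the 34 skeletal muscle genes in each library (points, labelled by replicate number; y axis, CPM on a log scale) by group, with the group mean as a bar. The libraries of each group spread over 4.64-fold to 14.3-fold, and the highest, knockout SNI 21, lies at 2196 CPM.

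The genes moved together from library to library. For each tested gene, its log2 CPM was correlated with the mean log2 CPM of the other tested members over the 15 libraries. Pearson's r was 0.9 or more for 21 of the 32, and its median was 0.95, against a median of 0.000676 for the 16944 other tested genes set against the mean of all tested members. The 15 points share library depth and preparation, and the values are a description. Within groups the median SD of log2 CPM was 1.66 for the 32 genes (0.4 to 2.54) and 0.217 over all 16976 tested genes. Knockout SNI 21 was the highest library for 21 of the 34 genes, and control naive 6 was the lowest for 10.

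**Figure D2:**
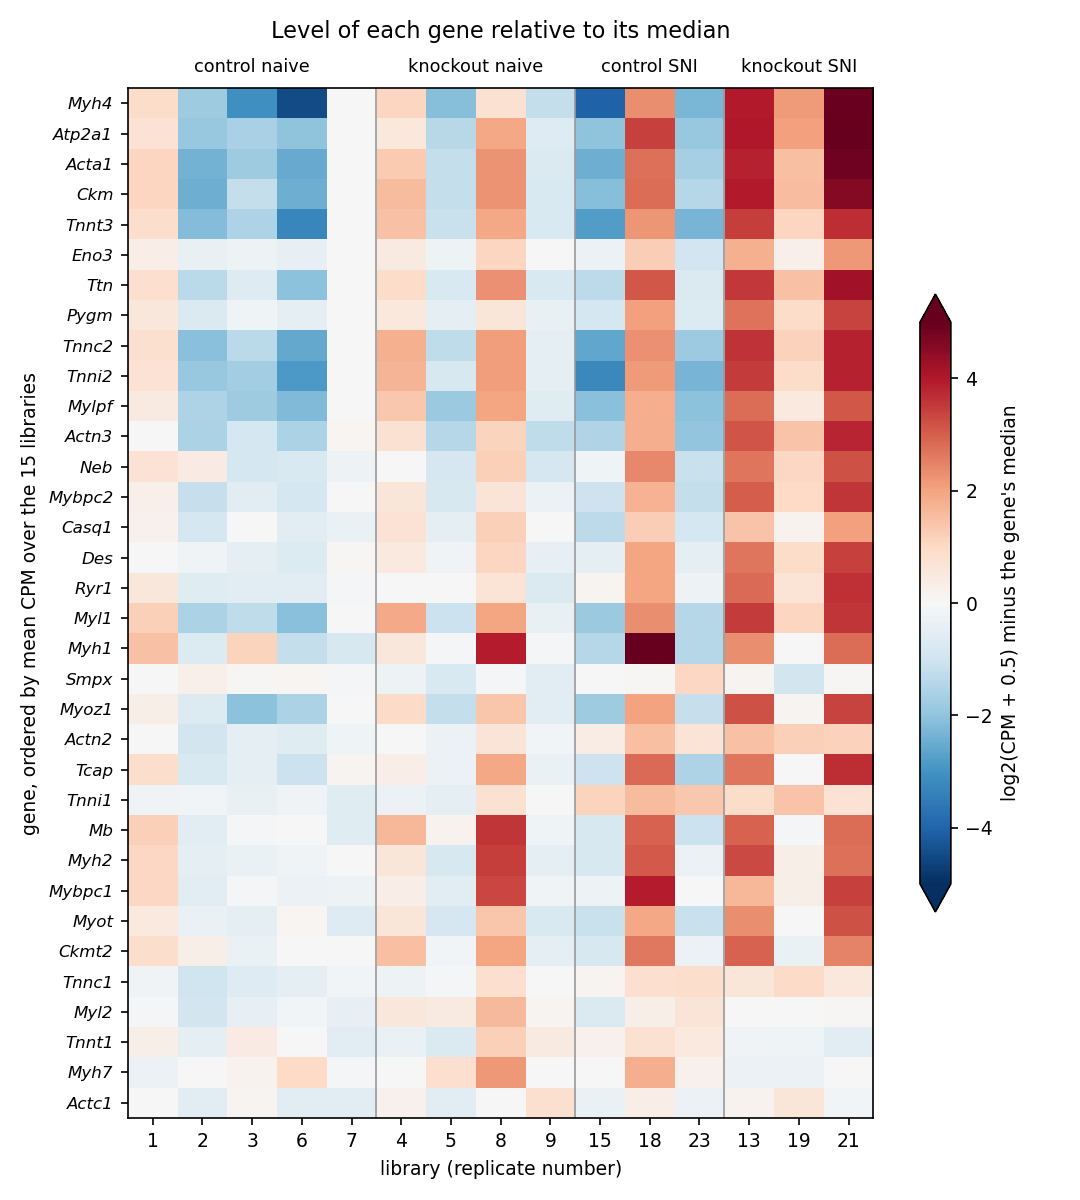
Level of each of the 34 genes (rows, ordered by mean CPM) in the 15 libraries (columns), as log2(CPM + 0.5) minus the median of the gene; colours saturate beyond 5. Most rows share the high columns control SNI 18, knockout SNI 13 and knockout SNI 21, while Smpx, Myl2, Tnnt1, Myh7 and Actc1 do not share them all. Tnni1 and Tnnc1 lie above their medians in these columns and in the other injured columns as well.

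Among the tested thin filament and Z disc genes, the within-group SD of log2 CPM ran from 0.419 for Smpx to 1.98 for Acta1. Acta1 encodes the actin of the skeletal muscle thin filament. Its level was 19.8, 1.38, 2.33, 1.18 and 9.14 CPM in control naive, 23.6, 3.77, 45.1 and 5.36 in knockout naive, 1.25, 64.8 and 2.59 in control SNI and 137, 26.6 and 278 in knockout SNI. In each group the highest library was more than 10 times the lowest, and the range over all libraries was 235-fold. Per kilobase of exon, Acta1 was the most abundant of the 34 genes in knockout SNI 21, at 181 CPM per kb.

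Des encodes desmin, the intermediate filament that ties the Z discs of neighbouring myofibrils. Its level was 2.95, 2.53, 1.96, 1.64 and 3.14 CPM in control naive, 4.37, 2.58, 6.84 and 2.09 in knockout naive, 1.98, 13 and 1.94 in control SNI and 21.5, 5.97 and 36.1 in knockout SNI. Control SNI 15 and 23 lay within the range of the naive controls, and only control SNI 18 lay above it. Ttn encodes titin, the giant elastic protein that spans the sarcomere from Z disc to M line. Its level was 8.67, 1.49, 2.8, 0.729 and 4.62 CPM in control naive, 9.05, 2.48, 24.7 and 2.48 in knockout naive, 1.56, 43.5 and 2.59 in control SNI and 58.5, 13.6 and 93.1 in knockout SNI, with control SNI 15 and 23 again among the naive values.

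Of the other genes of this group, 5 had the same highest library as Acta1, Des and Ttn. Neb (nebulin, which runs along the thin filament) ran from 1.94 to 47.4 CPM, Actn3 (the alpha-actinin of fast fibres) from 0.863 to 74.4, Tcap (telethonin, the cap of titin at the Z disc) from 0 to 18.3, Myoz1 (a Z disc protein that binds calcineurin) from 0 to 20.8 and Myot (myotilin, another Z disc protein) from 0 to 9.2. That library was knockout SNI 21. Actc1, the cardiac actin gene, was between 0.0911 and 1.05 CPM, with 55 counts over all libraries, and its highest library was knockout naive 9.

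Thick filament genes showed which myosin prevailed. Myh4 encodes the fast 2B heavy chain, Myh1 the fast 2X, Myh2 the fast 2A and Myh7 the slow heavy chain, which is also that of the heart ventricle in large mammals. The level of Myh4 was 27.8, 3.91, 1.31, 0.182 and 14.6 CPM in control naive, 30.9, 2.97, 25.2 and 6.14 in knockout naive, 0.417, 74.2 and 2.59 in control SNI and 237, 64.7 and 462 in knockout SNI. Knockout SNI was above knockout naive in all its 3 libraries, while control SNI held both low and high libraries.

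The 3 fast genes lie side by side on chromosome 11 of GRCm38, Myh2 at 67171027 to 67197517, Myh1 at 67200052 to 67224575 and Myh4 at 67238029 to 67260446, all on the plus strand. Of the 50-base words of the longest Myh4 transcript, 18.9% also occur in a transcript of another sarcomeric myosin heavy chain, and 26.7% do so for Myh1, 26.9% for Myh2 and 22.2% for Myh7. How reads that match several genes were handled is not given in the sources used here, so shares among these genes are uncertain to that extent. In the knockout SNI libraries Myh4 held 94.3%, 97.9% and 97% of the counts of the 4 heavy chain genes. Its share was 54.3% of 1325 counts in control SNI 18, where Myh1 held 39.5%. It was 44.5% of 596 counts in knockout naive 8, where Myh1 held 35.7%, Myh2 15.8% and Myh7 4.03%. The exact binomial 95% intervals of the Myh4 share, which cover counting error only, are 51.5% to 57% in control SNI 18, 40.4% to 48.6% in knockout naive 8 and 96.5% to 97.5% in knockout SNI 21. The libraries rich in muscle genes thus differed in the mixture of heavy chain genes as well as in the total.

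**Figure D3:**
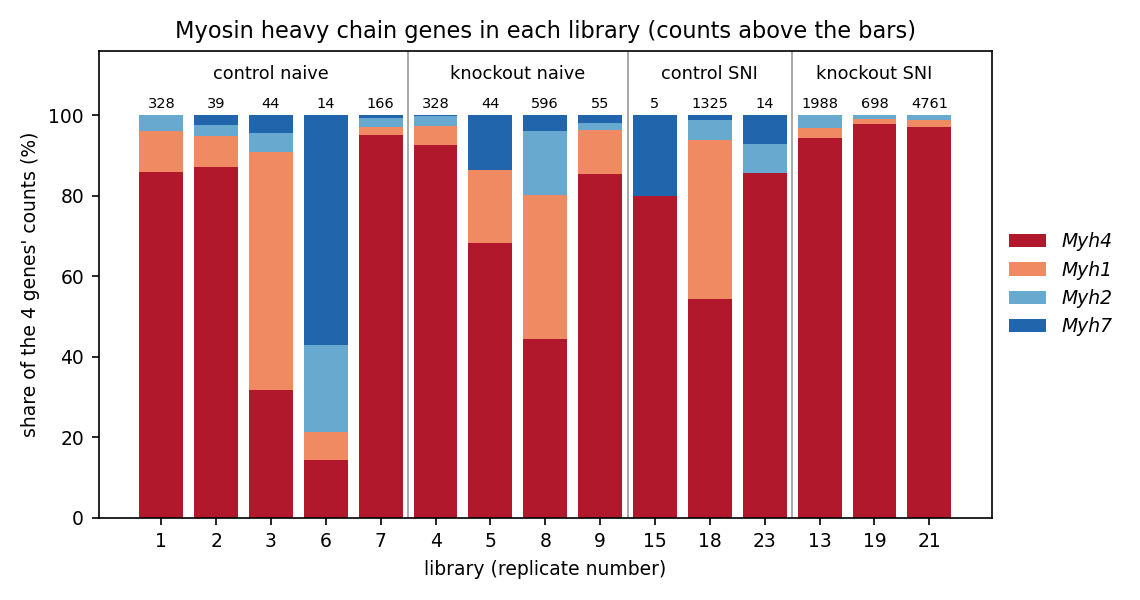
Share of the counts of Myh4, Myh1, Myh2 and Myh7 in each library (stacked bars, % of the summed counts of the 4 genes, which stand above each bar). Myh4 holds 94.3% or more in the 3 knockout SNI libraries and 54.3% and 44.5% in control SNI 18 and knockout naive 8; bars with few counts are imprecise.

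The level of Myh7 was 0, 0.115, 0.187, 0.729 and 0.0923 CPM in control naive, 0.102, 0.595, 2.28 and 0.131 in knockout naive, 0.104, 1.65 and 0.216 in control SNI and 0, 0 and 0.1 in knockout SNI. The slow heavy chain thus had 0, 0 and 1 counts in the 3 knockout SNI libraries. By the limit of 3 counts, it could still be at up to 0.379 CPM in knockout SNI 13 and 0.284 in 19. Myh7 was second highest in control SNI 18, where Myh4 was at 74.2 CPM. Myh1 ran from 0 to 54.1 CPM and Myh2 from 0 to 8.93. Mybpc1, the slow form of myosin binding protein C, ran from 0 to 10.3 CPM and was highest in control SNI 18 (10.3), knockout SNI 21 (7.2) and knockout naive 8 (6.84).

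Mylpf encodes the regulatory light chain of fast fibres. Its level was 8.37, 1.72, 1.4, 0.911 and 6 CPM in control naive, 16.2, 1.29, 25.1 and 3.79 in knockout naive, 1.04, 22.3 and 1.08 in control SNI and 44, 8.71 and 55 in knockout SNI. Myl1, the essential light chain of fast fibres, ran from 0.0911 to 29.4 CPM with the same high libraries. Mybpc2 encodes the fast form of myosin binding protein C. Its level was 5.12, 1.61, 2.61, 2 and 4.15 CPM in control naive, 6.61, 2.18, 6.84 and 3.27 in knockout naive, 1.77, 15.2 and 1.51 in control SNI and 37, 8.81 and 54.8 in knockout SNI. All 3 knockout SNI libraries of Mybpc2 were above the 4 knockout naive libraries.

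Troponin genes parted by fibre type. Tnnt3 encodes the tropomyosin-binding subunit of fast troponin. Its level was 18.1, 1.72, 2.89, 0.547 and 9.51 CPM in control naive, 26.8, 4.07, 37.5 and 5.36 in knockout naive, 0.939, 45.5 and 1.51 in control SNI and 109, 20.8 and 128 in knockout SNI, an order like that of Acta1. The other fast subunits, Tnni2 (inhibitory) and Tnnc2 (calcium-binding), ran from 0.104 to 80 CPM and from 0.417 to 79.3 CPM. Tnnt1, the slow tropomyosin-binding subunit, was at 0.886, 0.345, 1.03, 0.638 and 0.277 CPM in control naive, 0.407, 0.198, 2.09 and 1.05 in knockout naive, 0.834, 1.45 and 1.08 in control SNI and 0.506, 0.474 and 0.3 in knockout SNI. Knockout SNI 13 and 21, the libraries with the most Tnnt3, thus held little Tnnt1. The summed level of the 13 fast genes of the list ran from 10.2 to 1314 CPM, and that of the 5 slow genes (Myh7, Myl2, Tnnt1, Tnni1 and Tnnc1) from 2.53 to 13.3 CPM. The slow sum was 3.4 ± 0.741 CPM (SD, n = 5) in control naive, 6.63 ± 4.47 (n = 4) in knockout naive, 10.2 ± 3.03 (n = 3) in control SNI and 7.68 ± 1.76 (n = 3) in knockout SNI.

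Genes of calcium handling and energy supply followed the fast genes. Ryr1 encodes the calcium release channel of the sarcoplasmic reticulum. Its level was 4.23, 1.61, 1.68, 1.64 and 2.59 CPM in control naive, 2.64, 2.68, 4.56 and 1.44 in knockout naive, 3.03, 11.9 and 2.16 in control SNI and 21.9, 4.64 and 38.9 in knockout SNI, and knockout SNI 19 was only just above knockout naive 8. Atp2a1, the fast calcium pump SERCA1, ran from 1.55 to 288 CPM, and Casq1, the calcium-binding calsequestrin of fast fibres, from 2.29 to 28 CPM.

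Ckm encodes the muscle form of creatine kinase. Its level was 15.6, 0.919, 2.89, 0.911 and 7.2 CPM in control naive, 22.6, 2.88, 36.1 and 4.05 in knockout naive, 1.25, 53.3 and 2.37 in control SNI and 121, 22 and 187 in knockout SNI. Pygm encodes muscle glycogen phosphorylase. Its level was 11.4, 4.37, 6.35, 5.38 and 7.48 CPM in control naive, 11, 5.16, 11.7 and 5.62 in knockout naive, 3.86, 32.4 and 4.53 in control SNI and 52.6, 14.5 and 82.2 in knockout SNI. Both were lowest in naive controls or in control SNI 15 and highest in knockout SNI 21.

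Eno3, the muscle form of enolase, had a level of 14.9, 9.07, 9.71, 8.75 and 11.8 CPM in control naive, 16.2, 9.72, 25.8 and 11.8 in knockout naive, 9.6, 28.6 and 5.83 in control SNI and 42.1, 14.3 and 55.4 in knockout SNI. It was the most abundant of the 34 per kilobase at the median library (6.79 CPM per kb) and never fell under 5.83 CPM. Its range over all libraries, 9.51-fold, was small beside that of Acta1. Mb (myoglobin, the oxygen store of oxidative fibres) ran from 0 to 12.1 CPM and Ckmt2 (mitochondrial creatine kinase) from 0 to 6.19. Their highest libraries were knockout naive 8 and knockout SNI 13.

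Tnni1, Actn2, Tnnc1, Myl2, Tnnt1 and Smpx stood apart from the pattern. Tnni1 encodes the inhibitory subunit of slow troponin. Its level was 1.58, 1.61, 1.31, 1.55 and 1.02 CPM in control naive, 1.42, 1.19, 3.42 and 1.83 in knockout naive, 4.49, 6.5 and 5.4 in control SNI and 3.92, 5.78 and 3.3 in knockout SNI. It was thus high in control SNI 15 and 23, which were among the lowest libraries for Acta1, and its r with the other members was 0.407. Actn2 encodes the alpha-actinin of Z discs in all muscle fibres and the heart. Its level was 2.56, 1.15, 1.77, 1.55 and 2.22 CPM in control naive, 2.64, 2.08, 4.47 and 2.35 in knockout naive, 3.55, 8.47 and 4.53 in control SNI and 8.22, 6.63 and 6.5 in knockout SNI, so that control SNI 15 and 23 lay above all 5 naive controls (r with the other members 0.766).

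Tnnc1, the calcium-binding subunit of slow and cardiac troponin, ran from 0.345 to 1.01 CPM in control naive and from 1.36 to 2.59 in control SNI, with r = 0.572. It lies within the span of Nisch on the opposite strand of chromosome 14, a gene at 247 to 524 CPM, and the strand setting of the counting is not given in the sources used here. Smpx encodes a small protein of the muscle cytoskeleton. Its level was 4.33, 5.28, 4.58, 4.74 and 4.15 CPM in control naive, 3.56, 2.38, 4.09 and 2.87 in knockout naive, 4.38, 4.65 and 9.5 in control SNI and 4.93, 2.08 and 4.6 in knockout SNI. Its r with the other members was −0.0687, its range 4.56-fold, and its highest library the shallow control SNI 23. In control SNI 23 and the naive controls 2 and 6, where the 34 genes summed to 64.5, 57.1 and 47.3 CPM, Smpx alone gave 9.49, 5.28 and 4.74 CPM.

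**Figure D4:**
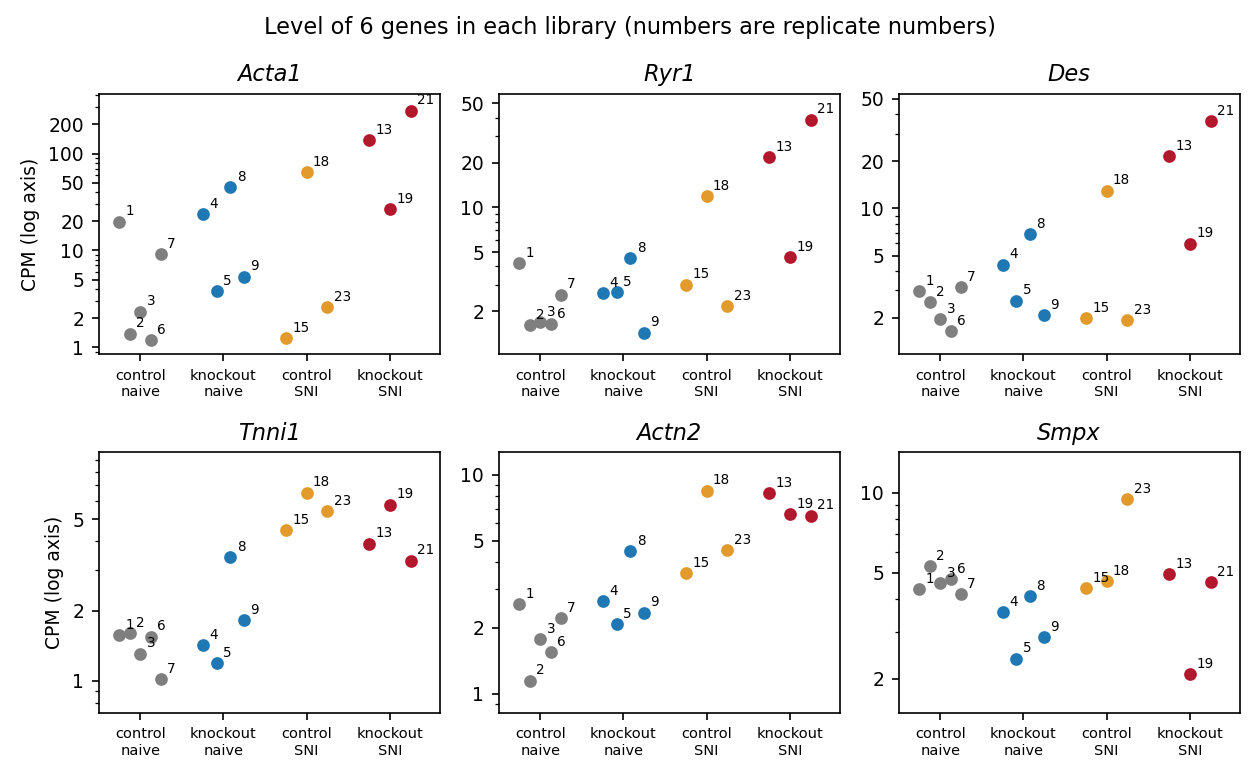
Level of Acta1, Ryr1, Des, Tnni1, Actn2 and Smpx in each library (points, labelled by replicate number; y axis, CPM on a log scale) by group. Acta1, Ryr1 and Des share the high libraries 18, 13 and 21, Tnni1 and Actn2 are also high in control SNI 15 and 23, and Smpx runs only from 2.08 to 9.49 CPM.

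The regulatory sequence of these genes is shown for 4 members that represent the patterns. Acta1 and Myh4 carried the large differences between libraries. Tnni1 was higher in each injured library than in every control naive library, and Smpx did not move with the rest. The windows run from 250 bases before to 50 after a transcription start, 5′ to 3′ on the strand of the gene, from RefSeq on GRCm38.p6. They lie at chr8:123894726-123895025 on the minus strand for Acta1, chr11:67237562-67237861 on the plus strand for Myh4, chr1:135799171-135799470 on the plus strand for Tnni1 (1 of 2 listed starts) and chrX:157698723-157699022 on the plus strand for Smpx. Capitals mark every match, on either strand, to the E-box (CANNTG, the site of the MyoD family), the CArG box (the site of serum response factor, 2 C, 6 A or T and 2 G) and the MEF2 site, by its name alone.
Acta1: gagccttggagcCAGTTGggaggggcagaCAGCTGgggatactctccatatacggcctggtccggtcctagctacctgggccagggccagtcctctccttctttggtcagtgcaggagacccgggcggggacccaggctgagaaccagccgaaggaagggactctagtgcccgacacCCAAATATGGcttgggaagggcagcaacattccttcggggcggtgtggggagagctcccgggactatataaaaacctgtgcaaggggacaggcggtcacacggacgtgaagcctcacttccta
Myh4: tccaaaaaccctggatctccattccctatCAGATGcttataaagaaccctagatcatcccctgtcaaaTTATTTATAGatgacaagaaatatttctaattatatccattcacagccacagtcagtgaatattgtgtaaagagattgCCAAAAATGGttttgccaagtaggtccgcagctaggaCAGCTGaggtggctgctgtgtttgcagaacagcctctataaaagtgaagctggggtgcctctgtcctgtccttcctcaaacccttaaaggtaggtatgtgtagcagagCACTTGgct
Tnni1: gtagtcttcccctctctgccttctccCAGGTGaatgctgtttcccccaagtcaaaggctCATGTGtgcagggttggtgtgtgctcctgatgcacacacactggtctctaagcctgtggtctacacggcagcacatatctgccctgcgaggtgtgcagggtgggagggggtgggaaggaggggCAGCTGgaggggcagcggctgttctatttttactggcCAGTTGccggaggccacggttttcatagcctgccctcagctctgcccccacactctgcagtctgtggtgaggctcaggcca
Smpx: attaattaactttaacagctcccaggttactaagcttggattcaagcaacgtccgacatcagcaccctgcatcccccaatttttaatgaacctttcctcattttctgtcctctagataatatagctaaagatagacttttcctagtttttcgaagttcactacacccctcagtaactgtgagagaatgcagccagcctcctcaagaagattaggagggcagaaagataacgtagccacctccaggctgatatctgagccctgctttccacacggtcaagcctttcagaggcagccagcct

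The Acta1 window held 2 E-boxes and 1 CArG box, the Myh4 window 3 E-boxes, 1 CArG box and 1 MEF2 site, the Tnni1 window 4 E-boxes and the Smpx window no match. RefSeq windows were found for 27 of the 34 genes (32 windows). An E-box was present in 28 of these 32 windows and in 72.3% of all 32851 windows, so E-boxes are common everywhere. A CArG box was present in 3 of 32 (Acta1, Actc1 and Myh4) and in 1.63% of all windows. A MEF2 site was present in 3 of 32 (Myh1, Myh4 and Ttn) and in 3.19% of all. A match is a stretch of letters and says nothing on binding.

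In naive animals, the comparison of knockout with control asks what loss of the cluster changes without injury. Most muscle genes had a higher mean in knockout, but the libraries of the groups overlapped for nearly all of them. Of the 32 tested, 31 had a log2 fold change above 0, with a median of 1.21 against 0.00138 over all tested genes. With 1 library left out this median ran from 0.376, without knockout naive 8, to 1.85. By edgeR's quasi-likelihood F test, with Benjamini-Hochberg adjustment over all 16976 genes, 1 of the 32 was called, against 1.89% of all genes. The call was Myl2, the slow and ventricular regulatory light chain, which rose by 1.91 ± 0.477 (log2 ± SE, adjusted p = 0.0495). Its level was 0.591, 0.115, 0.374, 0.547 and 0.369 CPM in control naive and 1.22, 1.09, 3.04 and 0.784 in knockout naive, at 1 to 32 counts a library, and 0.209, 0.929 and 1.3 in control SNI and 0.632, 0.663 and 0.7 in knockout SNI. The call was lost without any 1 of the 9 naive libraries, with an adjusted p of up to 0.258 without knockout naive 8.

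Myl2 and Smpx were the 2 members of 32 whose naive groups did not overlap, Myl2 higher and Smpx lower in knockout, against 9.63% of all genes. Smpx had a log2 fold change of −0.51 ± 0.265 (adjusted p = 0.504 by edgeR). The largest fold changes were those of Mybpc1 (log2 2.77 ± 1.7, adjusted p = 0.621) and Mb (2.61 ± 1.26, adjusted p = 0.459). Mybpc1 was at 0.407, 0, 6.84 and 0.131 CPM in knockout naive and Mb at 2.85, 0.694, 12.1 and 0.392, both highest in knockout naive 8. The highest control naive library was at 0.985 CPM for Mybpc1 and at 1.87 for Mb. Neb had the second lowest value (log2 0.22 ± 0.795). Acta1 stood at log2 1.53 ± 1.23 (adjusted p = 0.748), a standard error near the size of the difference.

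Injury was compared with the naive state in controls first. Tnni1 and Actn2 rose, while the abundant muscle genes did not pass the test. Tnni1 rose by 1.95 ± 0.299 on the log2 scale (adjusted p = 9.72e-04, edgeR) and Actn2 by 1.58 ± 0.312 (adjusted p = 0.00844), and in both genes all 3 control SNI libraries were above all 5 control naive libraries. These were 2 of 32 called, against 2.48% of all genes. Tnnc1 was the third gene without overlap between the groups (3 of 32, all higher, against 8.21% of all genes), with a log2 difference of 1.49 ± 0.387 (adjusted p = 0.0523).

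Tnni1 stayed called whichever of the 8 libraries was left out (adjusted p at most 0.0141), whereas the call of Actn2 was lost without control SNI 18 (adjusted p = 0.117). Both were lost when the 3 wt animals were left out, which leaves 1 control SNI library. All 32 log2 fold changes were above 0, with a median of 1.48 against 0.0197 over all genes, and this sign rested on 1 library. Without control SNI 18, a wt animal, the median was −1.53. The extremes were Myh1 (log2 3.86 ± 1.6, adjusted p = 0.275) and Mybpc1 (3.77 ± 1.66, adjusted p = 0.3) at the top, and Smpx (0.35 ± 0.28) and Casq1 (0.49 ± 0.623) at the bottom. Myh1 had 0 counts in both other control SNI libraries.

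In knockout mice, 10.1% of all 16976 genes were called after injury in either direction, and 1218 were called higher. Of the 32 members, 6 were called, all higher. They were Ryr1 (log2 2.91 ± 0.667, adjusted p = 0.0163, edgeR), Mybpc2 (2.81 ± 0.728, 0.0311), Pygm (2.56 ± 0.701, 0.0388), Des (2.38 ± 0.646, 0.0355), Actn2 (1.28 ± 0.306, 0.0149) and Tnni1 (1.13 ± 0.308, 0.0294). The 4 genes with the larger differences were highest in knockout SNI 21 and then 13, and the calls of all 4 were lost without knockout SNI 21 (adjusted p = 0.0866 for Ryr1, 0.124 for Mybpc2, 0.156 for Pygm and 0.167 for Des). Mybpc2 and Pygm lost the call without 6 of the 7 knockout libraries and Des without 5 of 7, each of these libraries left out alone, while Ryr1 lost it only without library 21. Without a filter on low counts the calls of Mybpc2, Pygm and Des were lost, and with only the compared groups those of Ryr1 and Des. Actn2 kept its call without any 1 of the 7 knockout libraries, with an adjusted p of at most 0.049. Tnni1 lost it without knockout SNI 19 (0.192) and without knockout naive 4, 5 or 9.

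The largest differences of this comparison did not pass the test. They were Myh4 (log2 3.95 ± 1.37, adjusted p = 0.094) and Atp2a1 (3.56 ± 1.26, 0.0971), and the lowest were Myl2 (−1.22 ± 0.522, 0.144) and Tnnt1 (−1.13 ± 0.667, 0.285). Acta1 stood at 2.9 ± 1.26 (0.167). The groups did not overlap in 8 of 32 genes, 7 of them higher and Myl2 lower, against 34.2% of all genes. The median log2 difference was 2.1 against −0.0216 over all genes, with 29 of 32 above 0. Leaving out single libraries moved the number called between 2 and 10.

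Knockout was compared with control after injury. None of the 32 genes was called by edgeR (0 of 32, against 1.04% of all genes), and DESeq2 and limma-voom also called 0. An unadjusted p under 0.05 (edgeR) was seen for 6 of the 32 and for 3862 of all 16976 genes. The smallest adjusted p was that of Mybpc2 (log2 2.33 ± 0.789, 0.141), followed by Ryr1 (1.85 ± 0.691, 0.156). The extremes were Myh4 (3.23 ± 1.48, adjusted p = 0.223) and Acta1 (2.61 ± 1.38, 0.282) at the top, and Myh1 (−1.84 ± 1.63, 0.523) and Tnnt1 (−1.39 ± 0.706, 0.248) at the bottom. Tnnt1 was the only member whose groups did not overlap (1 of 32, lower in knockout, against 16.2% of all genes). The median difference was 1.76 against −0.00862 over all genes, with 26 of 32 above 0. It was 5.15 without control SNI 18, and Actn3, Des, Pygm and Mybpc2 were then called.

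The injury effect of the knockouts minus that of the controls was called for 0 of 32 genes, and for 0% of all 16976. DESeq2 and limma-voom called 0 of the 32 as well. An unadjusted p under 0.05 (edgeR) was seen for 2 of the 32 and for 2281 of the 16976. The difference ran from −4.06 for Myh1 to 2.45 for Myh4, with Mybpc1 at −3.07 and Mybpc2 at 1.72, so the neighbouring genes Myh1 and Myh4 stood at opposite ends. All 5 comparisons draw on the same 15 libraries, here control SNI 18 with much Myh1 and knockout SNI 13 and 21 with much Myh4. The effects of injury on the muscle genes were therefore not shown to differ between the genotypes.

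Other genes of the same pathways were measured beside the 34. Of 30 other genes of the sarcomere and its assembly, 21 were tested. After injury 6 were called in knockout and 1 in control, all higher. Over all 16976 genes, 10.1% and 2.48% were called in either direction, and 1218 and 360 were called higher. Unc45b, a chaperone that folds myosin, was called in both knockout and control. Its level was 1.28, 2.18, 1.4, 1 and 0.646 CPM in control naive, 2.03, 1.19, 1.9 and 1.7 in knockout naive, 5.63, 7.43 and 3.45 in control SNI and 5.56, 5.02 and 8.5 in knockout SNI. All 6 injured libraries lay above all 9 naive libraries, whereas injured and naive libraries overlapped for Acta1, Ckm and Ttn. Unc45b rose by 2.14 ± 0.315 in control (adjusted p = 6.64e-04, edgeR) and by 1.89 ± 0.319 in knockout (adjusted p = 0.00133).

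The other 5 in knockout were Trim54, a ubiquitin ligase of the sarcomere (log2 3.78 ± 0.765, adjusted p = 0.00578), Mylk4, a kinase of the myosin light chain kinase family (3.29 ± 0.867, 0.0315), Cmya5, a costamere protein (2.44 ± 0.627, 0.0286), Mypn, a Z disc protein that binds alpha-actinin (2.06 ± 0.447, 0.00859), and Tpm1, a tropomyosin also made outside muscle (0.61 ± 0.117, 0.00422). All 5 were highest in knockout SNI 21, and their calls are not given here with single libraries left out. Trim54 was at 0.203, 0, 0.285 and 0.131 CPM in knockout naive, within counting error of 0, and at 2.78, 0.568 and 3.7 in knockout SNI. Besides knockout SNI 13 and 21, only control SNI 18 (1.65 CPM) exceeded 1 CPM for Trim54. Of 16 genes of excitation-contraction coupling, 13 were tested and 2 were called in knockout, both higher. They were Srl, a calcium-binding protein of the sarcoplasmic reticulum (1 ± 0.212, 0.00764), and Cacna1s, the voltage sensor of the T tubule (1.91 ± 0.573, 0.0478). Of 13 genes of muscle energy metabolism, 12 were tested and 2 were called in knockout, both higher. They were Slc2a4, the insulin-regulated glucose transporter (1.38 ± 0.357, 0.0226), and Phkg1, a catalytic subunit of phosphorylase kinase (1.02 ± 0.302, 0.0417). Over all 16976 genes, 10.1% were called in this comparison in either direction, and 1218 were called higher. The lists were not tested as sets. The summed levels of all 3 lists were highest in knockout SNI 21, at 691, 228 and 513 CPM, and second highest in knockout SNI 13, at 512, 190 and 463.5 CPM. The order below these differed between the lists. In control SNI 18 the sarcomere list was at 464 CPM, above all 9 naive libraries, and the energy list at 390 CPM, below all 5 control naive libraries. The coupling list was at 160.5 CPM, below that of control SNI 23, a library low in muscle genes. Such sums follow their most abundant genes, and Tpm1 alone was at 289 CPM in control SNI 18. Single genes could differ from their sum. In control SNI 18, Slc2a4 (4.96 CPM), Srl (18.8) and Cacna1s (3.2) were above every control naive library, while Phkg1 (2.58) was not.

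Genes of muscle precursor cells, of the motor end plate and of developing muscle were at differing levels. Myod1 had 2 counts over all 15 libraries, Myog 3, Pax7 2, and Chrnd and Chrng, subunits of the acetylcholine receptor of muscle, 1 each. Others of the list had counts in every library, among them Chrnb1 (median 4.56 CPM), Musk (4.04), Chrna1 (1.9) and the perinatal heavy chain gene Myh8 (1.85), and the highest library was control naive 1 for Chrnb1, knockout SNI 13 for Musk, control SNI 23 for Chrna1 and control SNI 15 for Myh8. Myf6, a regulator kept on in mature fibres, had 18 counts and was highest in knockout SNI 21 (0.7 CPM). Within this list Mef2c, which neurons also express, fell in naive knockout (log2 −0.45 ± 0.0902, adjusted p = 0.0147, edgeR) and Myl4, an embryonic and atrial light chain, fell after injury in knockout (−1.1 ± 0.237, adjusted p = 0.00795). Of the 8 heart muscle genes, 4 were tested. These were Ryr2 (median 83.5 CPM), Nppb (9.6), Myh6 (7.38) and Nppa (1.28), with counts in every library, whereas Tnnt2 had 18 counts and Mybpc3 15 over all libraries. The list was highest in control naive 3 and lowest in knockout SNI 21.

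Markers of other tissues peaked in several libraries, some of them high and some low in muscle genes. The smooth muscle list was highest in control SNI 18 (335 CPM against a median of 130), where Acta2 was at 76.5 CPM and Myh11 at 58.8. In knockout SNI 21 and 13 it summed to 194 and 131 CPM. The adipocyte list was highest in knockout SNI 19 (339 CPM against a median of 73.7), with Adipoq at 27.6 CPM and Plin1 at 10.1, and second in control SNI 18 (140 CPM). In knockout SNI 21 and 13, with the most muscle RNA, Adipoq was at 0.5 and 0.506 CPM. The bone and cartilage list was highest in knockout SNI 21 (60.4 CPM against a median of 41.7) and at 35.5 CPM in knockout SNI 13. Next highest were control naive 2 and 6 (56.4 and 55.1 CPM), both low in muscle genes. Comp, a gene of this list, was at 35 CPM in knockout SNI 21 and at 32.3 and 29.1 in control naive 2 and 6. The tendon and fascia list was highest in knockout SNI 19 and 21 (333 and 301 CPM, with Col1a1 at 270 and 230), the erythrocyte list in knockout naive 9 (1247 CPM) and the neutrophil list in control SNI 23 (892 CPM). Markers of satellite glia and Schwann cells summed to 7271 CPM in knockout SNI 13 and to 14740 in control naive 3. The part of these tissues in the differences between groups was not tested, and whether muscle was taken along with the ganglia was not tested either.

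The genes outside the list that varied most like its mean over the 15 libraries were Xirp2 (r = 0.986), Hfe2 (0.985), Klhl31 (0.977), Ube2c (0.97), Trdn (0.968), A930016O22Rik (0.967), Mylk2 (0.964), Mylk4 (0.962), Cacna1s (0.959) and Ampd1 (0.958). In all, 24 of the 16944 other tested genes had an r of 0.9 or more. Xirp2 binds actin at the junctions of muscle fibres, Trdn encodes triadin of the calcium release complex, and Ampd1 is the AMP deaminase of muscle.

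Ube2c and A930016O22Rik overlap members of the list. Ube2c encodes a ubiquitin-conjugating enzyme of the anaphase-promoting complex and is known as a gene of dividing cells. It lies on chromosome 2 at 164769898 to 164778822, plus strand, and shares 164777161 to 164778822 with Tnnc2 on the minus strand. Its level was 11.1, 2.18, 2.99, 3.55 and 6.37 CPM in control naive, 18.7, 3.07, 24.4 and 6.92 in knockout naive, 0.939, 29.5 and 2.81 in control SNI and 67, 14.8 and 80.1 in knockout SNI. In the same order Tnnc2 was at 9.26, 0.804, 1.68, 0.456 and 5.08 CPM, 18.6, 1.79, 23.1 and 3.53, 0.417, 26.7 and 1.08 and 67.2, 11.9 and 79.3, so in the high libraries the levels of both genes were nearly equal. A930016O22Rik is annotated as antisense and lies wholly within Ckm (chromosome 7, 19417466 to 19421417 within 19404776 to 19422841), on the opposite strand. It reached 108.4 CPM in knockout SNI 21, where Ckm was at 187, and was at 0.432 CPM in control SNI 23, where Ckm was at 2.37.

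**Figure D5:**
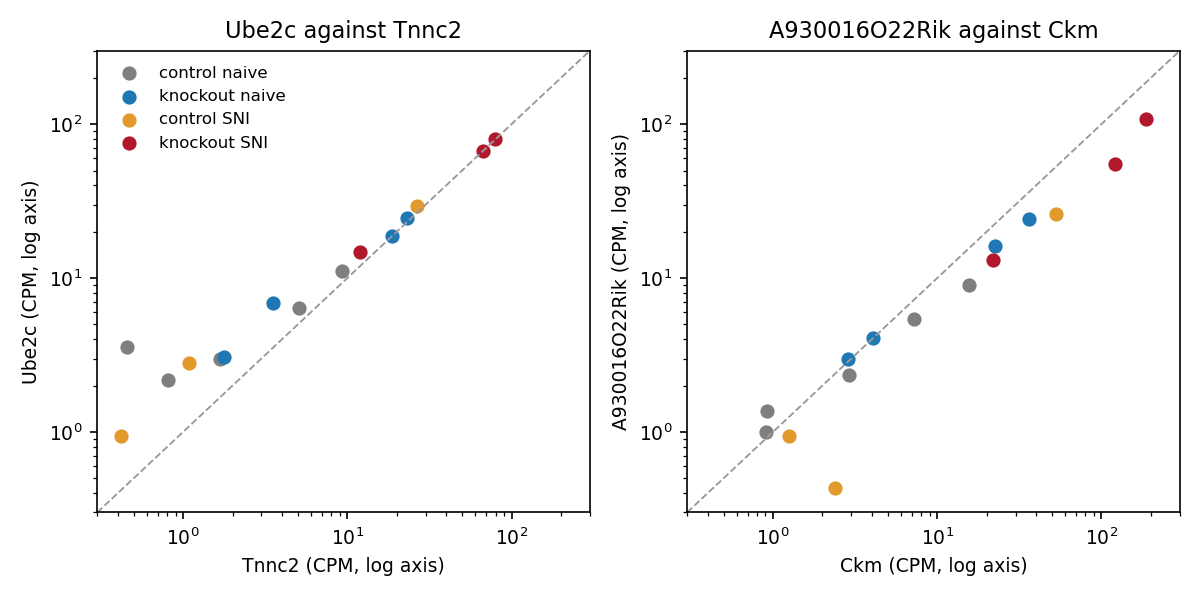
Level of Ube2c against Tnnc2 (left) and of A930016O22Rik against Ckm (right) in each library (points coloured by group; both axes CPM on a log scale; the dashed line marks equal levels). Each gene rises with its overlapping muscle gene, with r of 0.978 and 0.97 over 15 libraries.

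Of the 34 members, 9 overlapped a tested gene on the opposite strand, and in 7 of these pairs r was 0.8 or more. The others of the 7 were Myhas with Myh1 (0.957), 9430073C21Rik with Myh2 (0.94), Gm17224 with Casq1 (0.948), Rabep2 with Atp2a1 (0.902) and Prr33 with Tnnt3 (0.843). Nisch with Tnnc1 (0.302) and Apol6 with Mb (0.228) did not share the pattern. The library kit marks strand, but the strand setting of the counting is not given in the sources used here, so reads of a muscle gene and of its partner cannot be told apart. Rabep2, a vesicle trafficking gene, ran from 17.1 to 118 CPM and was highest in knockout SNI 21.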

How the data were processed

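RNA of 15 mice was sequenced from a stranded mRNA library kit, per the labels' protocols. The deposited values are raw read counts for each gene, as whole numbers. Tools named in the submitters' processing notes are HTSeq 0.6.1, TopHat2 2.0.4, Cufflinks, SAMtools and DESeq2, on GRCm38. Strand setting, annotation release, treatment of multiply matching reads and time after injury are not given in the sources used. Symbols and coordinates came from GENCODE M21 on GRCm38, and 0.523% of counts lie on identifiers without one.

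A count was present for 27310 genes, and 16976 passed filterByExpr of edgeR by group (minimum count 10), and the others hold 0.131% of the counts. A gene had to reach about 1 CPM (1.004) in at least 3 libraries, and 9 of the 32 tested members did so in fewer than 8. The 15 libraries entered a single edgeR 4.0.16 model of 4 group means (TMM, robust quasi-likelihood F test, two-sided, 11 residual degrees of freedom). Genes counted as called below 0.05 after Benjamini-Hochberg adjustment. The fit was also tried on simulated counts, with the spread of each gene set by the trend over all genes. That trial says nothing on genes that vary as much within groups as these members. Log2 CPM used a prior count of 2. Sums, medians and correlations over the members are descriptions without a test. Alternatives used other normalisation (RLE), DESeq2 1.42.0, limma-voom 3.58.1, no filter, only the compared groups, Wnt1-Cre controls only, and each library left out (R 4.3.3, Python 3.11.15).

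The 34 genes, the other lists and the alternatives were chosen with earlier results of these data known. Single-library values are given for each called member and for Acta1, Ckm, Mylpf, Myh4, Tnnt3, Myh7, Tnnt1, Des, Ttn and Eno3. Each comparison names its 2 highest and 2 lowest members, and 10 outside genes most like the members' mean are named. Smpx, Tnnc1, Ube2c and Tnnc2 values, the genes described beside them and the overlaps with neighbouring genes were added after the values were seen.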

Additional observations from a re-analysis of the deposited data

Results flagged for a closer look

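Among the naive controls, the slow myosin heavy chain gene Myh7 was flagged because 1 library lay far from the others. It was at 0.729 CPM in control naive 6, from 8 counts, and the next library was at 0.187 CPM. The gap was 0.744 of the range of the 5 libraries. The check covered the 17 genes named by rule in the 2 naive groups, 34 checks in all, and chance flags about 1 in 20. Control naive 6 was the lowest library for 10 of the 34 genes, with Acta1 at 1.18 CPM and Myh4 at 0.182 CPM.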

How the results depend on the processing

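No paired analysis was possible because replicate numbers are not shared between groups. The values below changed under the named settings, and the cause was not tested. In naive animals 321 genes were called, with 515 by DESeq2, 1017 with only the compared groups, 709 with Wnt1-Cre controls only and 151 to 708 with 1 library left out. The 1 member called became 0 with RLE, limma-voom or only the compared groups, and 0 to 1 with a library left out.

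For injury in control, 421 genes were called, with 673 by DESeq2, 213 with only the compared groups, 259 with Wnt1-Cre controls only and 283 to 1506 with a library left out. The 2 members became 1 with only the compared groups, 0 with Wnt1-Cre controls only and 1 to 3 with a library left out, and their median of 1.48 became −1.37 with Wnt1-Cre controls only and −1.53 to 2.1 with a library left out. For injury in knockout, 1717 genes were called, with 4438 with only the compared groups, 4745 with Wnt1-Cre controls only and 587 to 4409 with a library left out. The 6 members became 3 without a filter, 10 by limma-voom, 10 with Wnt1-Cre controls only and 2 to 10 with a library left out.

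For knockout against control after injury, 177 genes were called, with 955 by DESeq2, 0 with only the compared groups, 74 with Wnt1-Cre controls only and 57 to 3558 with a library left out. No member was called, and 0 to 4 were with a library left out. The median of 1.76 became 5.05 with Wnt1-Cre controls only and 0.891 to 5.15 with a library left out. For the difference between the injury effects, 0 genes were called, with 1 without a filter, 13 by DESeq2, 1 with Wnt1-Cre controls only and 0 to 1235 with a library left out, and the median of 0.546 became 3.43 with Wnt1-Cre controls only and −0.119 to 3.4 with a library left out.

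With the mean log2 CPM of the tested members in place of the summed level, the groups stood at 0.932 (control naive), 1.84 (knockout naive), 1.47 (control SNI) and 3.68 (knockout SNI). With a library left out, the mean summed level ran over 74.8 to 118, 144 to 275, 58.4 to 408 and 837 to 1774 CPM in the same order. The median SE of a member's log2 fold change was 1.04 to 1.62 in the 5 comparisons, against 0.14 to 0.223 over all genes, which limits what 3 to 5 libraries a group can show.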
